A study of Mus musculus with 4 samples.

Results

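Ccl1, Ccr8, Ccl17, Ccl22 and Ccr4 are the genes of a pair of chemokine axes, CCL1 with its receptor CCR8 and CCL17 and CCL22 with their receptor CCR4. They are 5 of the 32285 genes listed for the CD45 sort and of the 31053 listed for the T cell sort, and all 5 were found under their symbols, with the same gene identifiers, in both. The genes were selected on their measured levels, that is, their UMIs per cell class and library and the share of cells positive, with these already known, so the levels are given as a description and are not tested. The question was which cells held the RNA of the ligands and which cells held that of the receptors.

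Chemokines are small secreted proteins that guide cells bearing the matching receptor. CCR4 and CCR8 are known from regulatory T cells (Tregs), type 2 helper T cells and skin-homing T cells, and their ligands are studied in tumors as signals that draw Tregs. CCL17 and CCL22 are products of dendritic cells (DCs) and some macrophages, while CCL1 is mainly a product of activated T cells. In the mouse, CCL8 is a further ligand of CCR8.

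The cells came from tumors of C57BL/6 mice injected under the skin with B16-F10 melanoma cells, a single selected clone in which doxycycline switches on the green fluorescent protein ZsGreen (ZsG). The mice drank doxycycline before harvest on day 8, and immune cells with and without ZsG taken up from the tumor were sorted from digested tumors. All groups therefore shared the tumor clone and the drug, and the number of mice was not given in the sources used here. There were 4 single-cell RNA libraries, 1 per group: CD45+ cells, ZsG-negative and ZsG-positive, and CD45+ TCRb+ cells (the T cell sort), ZsG-negative and ZsG-positive. With 1 library in each group no test of the ZsG groups was possible, and every interval below is a 95% interval that covers counting error only.

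After filtering, 4698 ZsG-negative and 4124 ZsG-positive cells of the CD45 sort were used, with a median of 5770 and 9931 UMIs per cell (a UMI, unique molecular identifier, stands for 1 counted RNA molecule). The T cell sort gave 659 and 780 T cells with a median of 5799 and 6501 UMIs. Another 1388 cells of the T cell sort had little or no CD3 RNA, among them 484 cells with plasmacytoid DC (pDC) markers and 242 with monocyte/macrophage markers, and they were kept apart as CD3-low cells. The labels named the libraries of the T cell sort in opposite orders, and the ZsG-positive library was taken to be the one with 2396 barcodes. If that order is wrong, each ZsG direction of the T cell sort turns around. Under the order used, Treg-like cells were 115 of the 780 ZsG-positive and 34 of the 659 ZsG-negative T cells. The paper, from these same libraries, reports more Tregs in its ZsG-positive T cell sample, a direction that the exchanged order would turn around. By flow cytometry in Foxp3 reporter mice it also reports that ZsG-positive cells were more frequent among Tregs than among conventional CD4 T cells. The positive gate of the CD45 sort took the brightest cells, so dimmer ZsG-bearing lymphocytes fell into the ZsG-negative library. From 1 to 6 barcodes were shared by each pair of libraries. Cell classes were called "-like" where markers fixed for the class were raised in a cluster, and other clusters are called by their leading genes.

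The promoters of the 3 ligands are shown because these genes were read at high levels in few cells. Each run is the 250 bases before the start of transcription, 5′ to 3′ on the gene's strand, from RefSeq on GRCm38.p6. The windows are chr11:82179813-82180062 on the minus strand for Ccl1, and on the plus strand chr8:94810203-94810452 for Ccl17 and chr8:94745434-94745683 for Ccl22. Capitals mark matches, on either strand, to an NF-kappaB-type motif (GGGA, any 4 bases, CC) in Ccl1 and Ccl22 and to a STAT6-type motif (TTC, any 4 bases, GAA) in Ccl17.
Ccl1: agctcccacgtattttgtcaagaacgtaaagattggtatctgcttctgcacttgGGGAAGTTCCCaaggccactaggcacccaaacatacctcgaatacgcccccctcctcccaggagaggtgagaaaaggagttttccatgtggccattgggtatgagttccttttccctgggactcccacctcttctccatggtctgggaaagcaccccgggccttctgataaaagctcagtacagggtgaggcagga
Ccl17: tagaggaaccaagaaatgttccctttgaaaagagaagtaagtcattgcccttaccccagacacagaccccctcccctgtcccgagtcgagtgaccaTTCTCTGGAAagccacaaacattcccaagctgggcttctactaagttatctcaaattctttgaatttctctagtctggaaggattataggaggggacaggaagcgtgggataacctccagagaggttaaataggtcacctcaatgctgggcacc
Ccl22: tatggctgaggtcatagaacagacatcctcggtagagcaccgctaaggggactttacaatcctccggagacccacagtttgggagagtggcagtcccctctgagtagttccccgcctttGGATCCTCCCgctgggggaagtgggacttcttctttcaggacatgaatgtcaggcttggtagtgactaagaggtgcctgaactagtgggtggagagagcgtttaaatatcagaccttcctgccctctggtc
Counting from the start site, the NF-kappaB-type match of Ccl22 begins at base -131 and the STAT6-type match of Ccl17 at base -154. In Ccl1 there is a pair of overlapping matches that begin at bases -196 and -195 and read the same site on either strand.

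Of 32851 promoter windows of 300 bases (the 250 before the start and the 50 after it), 20.7% held the NF-kappaB-type motif and 6.95% the STAT6-type motif. Ccr8 held 1 NF-kappaB-type match at base -135. Ccr4 held 1 match to the AP-1-type motif TGANTCA, which 7.81% of the windows held. The TATA-type motif TATAAA, present in 13.6% of the windows, was in none of the 5. These matches describe the letters only and are not sites of binding.

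Ccl22 (chromosome 8, 94745590 to 94751699) and Ccl17 (94810453 to 94812036) are neighbors on the plus strand of GRCm38, 58753 bases apart, with Cx3cl1 as the only protein-coding gene between them. Ccr4 (114490316 to 114504916, minus strand) and Ccr8 (120092114 to 120094906, plus strand) both lie on chromosome 9, 5587197 bases apart. Ccl1 lies on chromosome 11, minus strand. These gene spans are from the GENCODE annotation, while the promoter windows use RefSeq starts. The starts differ for Ccl1, Ccl22, Ccr8 and Ccr4, and no span is given here for Ccl1. The Ccl22 window, which ends at 94745683, therefore reaches into the Ccl22 span given here.

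CCL1, the ligand of CCR8, was read in T cells with much Cd8a RNA. In the T cell sort the ZsG-positive T cells held 3356 Ccl1 UMIs, 442 CPM (counts per 1000000 UMIs of the class, 427 to 457), and the ZsG-negative T cells 252, 51.2 CPM (45.1 to 57.9). Of 780 ZsG-positive T cells 64 had a Ccl1 UMI (8.21%, 6.38 to 10.4%), as did 11 of 659 ZsG-negative T cells (1.67%). With each cell thinned to 2000 UMIs the shares were 5.64% (43 of 762 cells) and 0.613% (4 of 653 cells). As a background, 15 of 1099 CD3-low ZsG-positive cells had a Ccl1 UMI (1.36%), 14 of them a single one. After thinning 0.190% did, and the CD3-low cells had a median of 8572 UMIs. The source of their Ccl1 UMIs was not tested. The share in ZsG-negative T cells thus lay near this background of the other library before thinning. In the ZsG-negative library itself all 252 Ccl1 UMIs were in T cells and none in its 289 CD3-low cells. Most of the 252 came from few cells with many.

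The UMIs of Ccl1 were concentrated in single cells. In the ZsG-positive T cells 97.7% of them came from cells with at least 10, the top cell held 485 (14.5%), and 7 cells held 50% of the total. In the ZsG-negative T cells the top cell held 155 of 252 (61.5%). Without the top cell of each library the Ccl1 levels were 380 and 19.9 CPM. With cells thinned to 2000 UMIs they were 208 and 12.3, and with the CD3-low cells included 183 and 31.6. The log2 ratio of ZsG-positive over ZsG-negative was 3.11 (2.92 to 3.30), 8.63-fold. Of 11336 genes with at least 10 UMIs in the T cells of this sort 7.76% were at least 2-fold higher in the ZsG-positive library, and the median log2 ratio of all of them was 0.07.

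**Figure D1:**
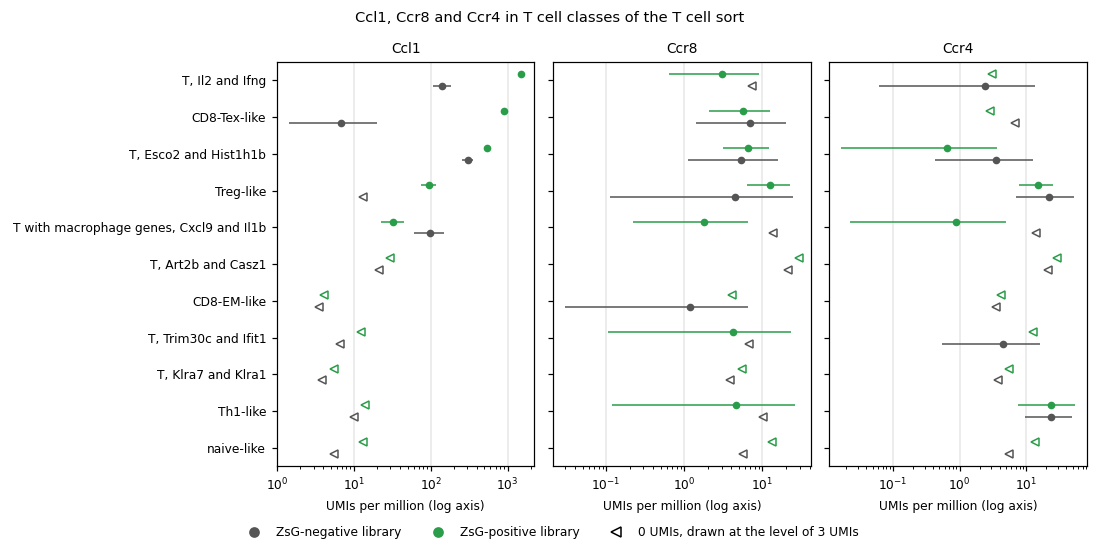
Levels of Ccl1, Ccr8 and Ccr4 in the T cell classes of the T cell sort, in CPM on log axes, gray for the ZsG-negative and green for the ZsG-positive library. Points are levels with 95% Poisson intervals, and open triangles mark classes with 0 UMIs, drawn at the level that 3 UMIs would give. Ccl1 stands at 1500 CPM in the ZsG-positive cells led by Il2 and Ifng, while Ccr4 is highest in the Treg-like and Th1-like classes.

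Between T cell classes the Ccl1 level ran over a wide range. The highest class was led by Il2, Ifng and Crabp2 and had Cd8a UMIs in 93.9% of its 99 cells. There Ccl1 stood at 1500 CPM (1425 to 1579, 24 of 67 cells) in the ZsG-positive and 141 (107 to 182, 4 of 32 cells) in the ZsG-negative library. Its top ZsG-positive cell held 272 UMIs, 18.5% of the class total, so no single cell carried this level.

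CD8-Tex-like cells (exhausted CD8 T cells, 5 of 6 markers raised) came next, with Ccl1 at 900 CPM (843 to 959, 20 of 88 cells) in the ZsG-positive library. Their ZsG-negative level was 6.89 CPM (1.42 to 20.1), from 3 UMIs in 2 of 36 cells. The log2 ratio in this class was 7.03 (5.48 to 9.31). Its top ZsG-positive cell held 378 UMIs, 39.9% of the total.

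The cycling class led by Esco2 and Hist1h1b stood at 537 CPM of Ccl1 (501 to 575, 13 of 62 cells) in the ZsG-positive and 302 (259 to 351, 4 of 20 cells) in the ZsG-negative library. One cell in each library held most of that, 485 of 818 UMIs and 155 of 170. Neighbors in this order did not overlap in their ZsG-positive counting intervals, but the largest cells of the second and the third class held 39.9% and 59.3% of their UMIs.

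Treg-like cells held 83 Ccl1 UMIs in the ZsG-positive library (95.2 CPM) and none among 34 ZsG-negative cells. Of these 83 UMIs 74 came from 1 cell with 35967 UMIs in all, which also held 38 Ccl22, 6 Ccl17 and 7 Foxp3 UMIs. This cell carried all 7 T cell and all 7 mature DC markers and was in the top 5% of doublet scores. The doublet caller marked too few cells to have worked, so its scores are given here and below as a description only. T cells with monocyte/macrophage genes stood at 32.4 CPM of Ccl1 in the ZsG-positive library and 96.7 in the ZsG-negative, where all 21 UMIs were in 1 of 9 cells. Ccl1 was at 0 in both libraries in the CD8-EM-like (effector memory), Th1-like, naive-like, Klra7-led, Trim30c-led and Art2b-led classes. For 289 CD8-EM-like cells, a count of 0 allows up to 1.04% of cells with a UMI.

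Of the 44 T cells of this sort with at least 10 Ccl1 UMIs, 43 had UMIs of Cd8a or Cd8b1 and 1 had Cd4 without either. Among all 1439 T cells of the sort 955 had Cd8a or Cd8b1. Foxp3 was found in 2 of the 44. Gzmc, a granzyme gene, was found in 16 (36.4%), and its share over all T cells was not computed. The Ccl1-rich cells were deep, with a median of 17833 UMIs against 6093 over all T cells of the sort.

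In the ZsG-positive library of the CD45 sort some lymphoid clusters carried monocyte/macrophage genes. Of the 214 ZsG-positive cells in T clusters 82 were in a cluster led by Arg1 and Dab2, with Cd8a UMIs in 36.8% of its cells, and 18 in one led by Chil3 and Il1b. Of the 113 ZsG-positive NK/ILC cells 91 were in a cluster led by C1qa and C1qb. The first and the last of these clusters held no Ccl1 UMI, and the second held 3 in the ZsG-positive library. The part of these cells in the ZsG ratios over all T or all NK/ILC clusters was not tested, but levels are also given by cluster.

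In the CD45 sort Ccl1 was read in T cells and, at a lower share, in NK/ILC cells (natural killer and other innate lymphoid cells). The T clusters held 2928 Ccl1 UMIs in the ZsG-negative library, 144 CPM (139 to 149), in 138 of 1534 cells (9.0%). In the ZsG-positive library they held 744, 267 CPM (248 to 286), in 32 of 214 cells (14.95%). The thinned shares were 3.92% and 7.01%. The log2 ratio was 0.89 (0.77 to 1.00), and 5.57% of 12183 genes were at least 2-fold higher in the ZsG-positive T clusters. Ccl1 was higher in the ZsG-positive library in both sorts, at 1.85-fold here and 8.63-fold in the T cell sort. With the doubted library order of the T cell sort exchanged, Ccl1 would be 8.63-fold lower there, opposite to the CD45 sort. The gates and the cells kept differed between the sorts, so the folds were not compared.

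The CD45 T clusters differed widely in Ccl1. The cluster led by Bcat1 and Shmt1 had the highest level, 300 CPM in the ZsG-negative (287 to 314, 56 of 168 cells) and 469 in the ZsG-positive library (425 to 516, 13 of 34 cells). Its cells had a median of 36378 UMIs. After thinning, 18.8% of them still had a Ccl1 UMI, against 34.2% before. The cluster led by Cd200 and Gzmf stood at 155 (143 to 168) and 384 (320 to 456), and the cycling cluster led by Mxd3 and Depdc1b at 74.7 (65.7 to 84.5) and 337 (292 to 389). The cluster led by Tbc1d4 and Aldoc held 121 UMIs in 51 ZsG-negative cells (216 CPM). In each of the 3 clusters with at least 20 cells in both libraries the ZsG-positive level was above the ZsG-negative one. Treg-like cells of this sort held 2 Ccl1 UMIs in 77 cells, and CD8-EM-like cells none in 174.

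**Figure D2:**
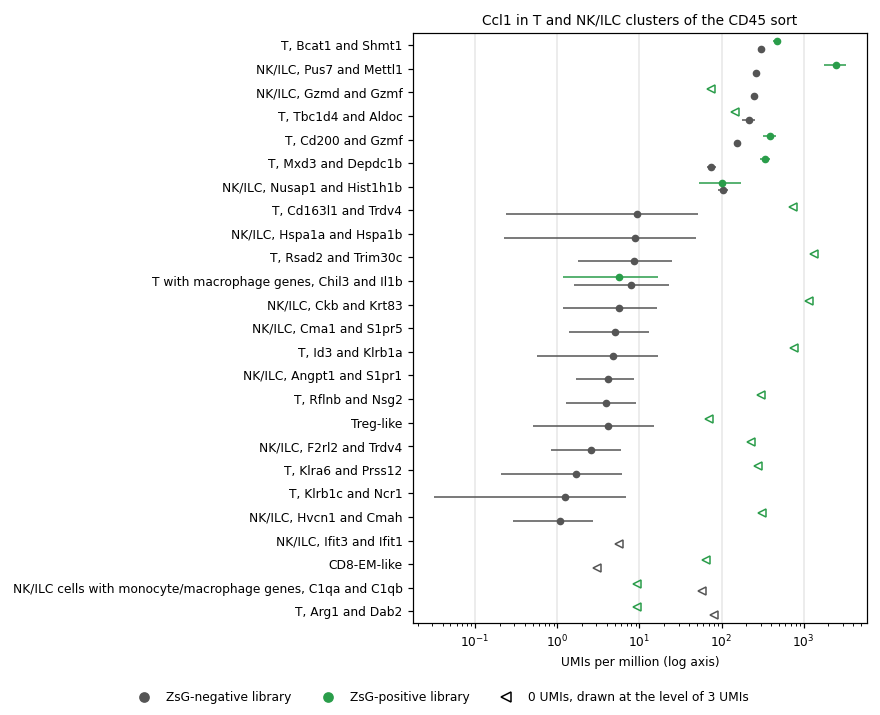
Ccl1 level in the T and NK/ILC clusters of the CD45 sort, in CPM on a log axis, gray for the ZsG-negative and green for the ZsG-positive library, with 95% Poisson intervals. Open triangles mark 0 UMIs, drawn at the level of 3 UMIs. In the ZsG-negative library 7 clusters have levels above 70 CPM, and the other clusters with a Ccl1 UMI lie below 10.

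NK/ILC cells of the CD45 sort, which were nearly all in the ZsG-negative library, held 1281 Ccl1 UMIs there, 83.4 CPM (78.9 to 88.1), in 62 of 2517 cells (2.46%, thinned 1.08%). The clusters that grouped with the DCs gave the background in this sort, with 13 of 983 cells positive (1.32%, thinned 0.509%) and 1 Ccl1 UMI in each. Of these 13 UMIs 6 were in the 350 ZsG-negative cells. The 983 cells include the 233 of the C1qc-led cluster, which raised monocyte/macrophage markers. Of the 11 NK/ILC clusters 3 held most of the RNA. The cluster led by Pus7 and Mettl1 stood at 261 CPM in the ZsG-negative library (13 of 282 cells). The cluster led by Gzmd and Gzmf, granzyme genes, stood at 246 (18 of 146 cells), with 412 of its 523 UMIs in 1 cell. The cycling cluster led by Nusap1 and Hist1h1b stood at 104 (8 of 87 cells). The other NK/ILC clusters with a Ccl1 UMI lay between 1.07 and 8.79 CPM. In the ZsG-positive library 113 NK/ILC cells held 57 Ccl1 UMIs, 44 of them in 1 cell, and the log2 ratio of 0.37 had an interval of -0.04 to 0.75.

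Of the 95 cells of the CD45 sort with at least 10 Ccl1 UMIs, 77 had Cd8a or Cd8b1 and 83 had CD3 RNA. Ncr1, a receptor gene of NK cells, was found in 22, and 12 of these had no CD3 RNA. Gzmc was found in 68 (71.6%), again without a share over all cells. A few such cells lay in myeloid clusters of the ZsG-positive library. The 3 with 29, 39 and 48 Ccl1 UMIs each carried all 7 T cell markers and 7 or 8 of the 9 monocyte/macrophage markers, and 2 of them were in the top 5% of doublet scores. Whether they were doublets was not tested.

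CCR8, the receptor of CCL1, was sparse, with at most 3 UMIs in a cell. ZsG-positive T cells of the T cell sort held 34 Ccr8 UMIs, 4.48 CPM (3.10 to 6.26), in 29 of 780 cells (3.72%), and the ZsG-negative T cells 8, 1.63 CPM (0.702 to 3.20), in 8 of 659 cells (1.21%). The log2 ratio was 1.46 (0.32 to 2.78). After thinning, 5 of 762 and 1 of 653 cells had a UMI (0.656% and 0.153%), which is too few to compare. In CD3-low cells 1 of 1099 ZsG-positive cells had a Ccr8 UMI (0.0910%, median 8572 UMIs).

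Treg-like cells were 115 of the 780 ZsG-positive and 34 of the 659 ZsG-negative T cells. In the ZsG-positive library they carried the highest Ccr8 level of the T cell classes, 12.6 CPM (6.30 to 22.6, 10 of 115 cells), and in the ZsG-negative library 4.40 (0.111 to 24.5, 1 of 34 cells). Within this class the log2 ratio was 1.52, with an interval of -1.26 to 6.95, so no difference was detectable at this depth. The 14 Treg genes listed (Foxp3, Il2ra and others) had a median log2 ratio of -0.08 within Treg-like cells, with none of the 14 at 2-fold. Foxp3, Il2ra, Ctla4, Ikzf2, Tnfrsf18 and Tnfrsf4 were also the markers that named this class. Their likeness between the libraries was thus in part built in. Of 12 DC maturation genes in the same Treg-like cells 7 were at least 2-fold higher in the ZsG-positive library, as were 12.7% of 7027 genes tested in this class. The cell with mature DC markers lay in that library, and the part of that cell in the Treg-like values was not tested. Over all T cells of the sort the median of the 14 Treg genes was 0.83, with 6 of the 14 at least 2-fold higher in the ZsG-positive library (Foxp3, Tnfrsf4, Tnfrsf9, Il1rl1, Areg and Il10), against 7.76% of all 11336 genes tested.

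The cycling class led by Esco2 and Hist1h1b followed in Ccr8 at 6.56 (ZsG-positive) and 5.33 CPM (ZsG-negative), and CD8-Tex-like cells at 5.69 and 6.89. The intervals of these 3 classes overlapped in each library, so their order was not resolved. Of the 37 Ccr8-positive T cells in this sort 22 had a Foxp3 UMI (59.5%), against 12.2% of all 1439 T cells, and 13 had Cd8a or Cd8b1 without Cd4. The Ccr8-positive cells had a median of 19151 UMIs against 6093 in all T cells, and deeper cells more often show a UMI of any gene.

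The T clusters of the CD45 sort held 50 Ccr8 UMIs in the ZsG-negative (2.46 CPM, 1.83 to 3.24) and 12 in the ZsG-positive library (4.3, 2.22 to 7.51). The log2 ratio was 0.81 with an interval of -0.24 to 1.73. The cycling cluster led by Mxd3 and Depdc1b had the most positive cells, 17 of 157 (10.8%), at 4.80 (ZsG-negative) and 10.5 CPM (ZsG-positive). Treg-like cells of this sort had only 2 positive cells among 77. Of the 51 Ccr8-positive T cells 21 had Foxp3 (41.2%, against 5.84% of all 1748 T cells) and 30 had Cd8a or Cd8b1 without Cd4. In NK/ILC cells no Ccr8 UMI was found in either library.

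Ligand and receptor were at times in the same cell. Among the 37 Ccr8-positive T cells of the T cell sort 9 (24.3%) also had a Ccl1 UMI, which is 12% of the 75 Ccl1-positive cells. Over all 1439 T cells of that sort Ccl1 was found in 75 and Ccr8 in 37. In the T clusters of the CD45 sort 11 of 51 Ccr8-positive cells (21.6%) had a Ccl1 UMI, 6.47% of the 170 Ccl1-positive cells. Those clusters held 1748 cells in all. Both genes were found mostly in deep cells, and the part of depth in this overlap was not tested.

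CCR4, the receptor of CCL17 and CCL22, was sparse, and in the T cell sort its UMIs in T cells were mostly in Treg-like and Th1-like cells. The ZsG-positive T cells of the T cell sort held 20 Ccr4 UMIs, 2.63 CPM (1.61 to 4.07, 17 of 780 cells), and the ZsG-negative T cells 17, 3.46 CPM (2.01 to 5.53, 16 of 659 cells). Th1-like cells, with Cd4 UMIs in 52.3% of cells, raised 4 of the 6 markers listed for type 1 helper cells, but not Tbx21 or Ifng. Their Ccr4 level was 23.2 (7.53 to 54.1) in the ZsG-positive and 23.6 (9.48 to 48.6) in the ZsG-negative library. Treg-like cells stood at 14.9 (7.94 to 25.5) and 22.01 (7.15 to 51.4), a log2 ratio of -0.56 with an interval of -2.14 to 1.28. The intervals of both classes overlapped, so which was higher was not resolved, and no ZsG difference was detectable in Treg-like cells.

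Positive for Ccr4 were 12 of 130 Th1-like (9.23%, thinned 4.03%) and 15 of 149 Treg-like cells (10.1%, thinned 4.96%). In CD3-low cells 3 of 1388 had a Ccr4 UMI (0.216%, median 8637 UMIs), all 3 of them among the 74 melanoma-like cells. Those held 4 Ccr4 UMIs in 31 ZsG-positive cells, 70.3 CPM (19.2 to 180.0), above the levels of the T cell classes but with an interval that overlapped those of Treg-like and Th1-like cells. The other T cell classes stood at no more than 4.44 CPM. Of the 33 Ccr4-positive T cells 23 had Cd4 without Cd8a or Cd8b1, and 18 had Foxp3 (54.5%). Their median depth of 4495 UMIs was below that of all T cells. In 3 cells Ccr4 and Ccr8 were found together, 9.09% of the Ccr4-positive and 8.11% of the Ccr8-positive cells.

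Treg-like cells of the CD45 sort held 16 Ccr4 UMIs in 71 ZsG-negative cells, 33.5 CPM (19.1 to 54.3), and 1 in 6 ZsG-positive cells. Together 15 of 77 cells were positive (19.5%) but only 1 of 77 after thinning. A small cluster led by Cd163l1 and Trdv4, with Il17a among its leading genes, held 5 Ccr4 UMIs in 22 cells. Of the 32 Ccr4-positive T cells in this sort 12 had Foxp3 (37.5%), 7 had Cd4 without Cd8a or Cd8b1 and 4 had Cd8a or Cd8b1 without Cd4. The 165 ZsG-negative CD8-EM-like cells stood at 5.10 CPM, 3 of 5 UMIs in 1 cell. The 2630 NK/ILC cells held 1 Ccr4 UMI.

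CCL17 and CCL22, the ligands of CCR4, were read mostly in clusters that grouped with the DCs. Among these, the cluster led by C1qc and C1qa raised all 9 monocyte/macrophage markers. It held 699 Ccl17 and 233 Ccl22 UMIs in the ZsG-positive library of the CD45 sort. The Ccr7-positive DC-like cells of the CD45 sort (mature DCs, all 7 markers raised) held the highest levels of both in the ZsG-positive library. Ccl22 stood at 1418 CPM (1311 to 1532) in 49 ZsG-positive and at 365 (253 to 511) in 12 ZsG-negative cells, from 646 and 34 UMIs. The share of Ccl22-positive cells was 73.5% (36 of 49) and 58.3% (7 of 12), and 61.2% and 50% after thinning. The log2 ratio was 1.96 (1.46 to 2.50), 3.88-fold, and it was 1.64 without the cell with most Ccl22 UMIs. Of 4832 genes with at least 10 UMIs in this class 20.6% were at least 2-fold higher in the ZsG-positive library, a background against which a single gene past 2-fold is no rare event. For comparison, NK/ILC cells had a Ccl22 UMI in 6 of 2630 cells (0.228%), at a median of 4549 UMIs.

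Ccl17 stood at 1197 CPM (1098 to 1301) in the same ZsG-positive Ccr7-positive DC-like cells, with 545 UMIs in 20 of 49 cells (40.8%, thinned 26.5%). The 12 ZsG-negative cells held 1 Ccl17 UMI (10.8 CPM, 0.272 to 59.9), and the log2 ratio of 6.80 had an interval of 4.32 to 12.1. One cell held 219 of the 545 UMIs (40.2%), without which the ZsG-positive level was 753 CPM. With mature DCs called cell by cell from marker UMIs, a wider class, the ZsG-positive levels were 325 CPM for Ccl17 and 248 for Ccl22. Over all clusters that grouped with the DCs Ccl17 stood at 195 CPM in 633 ZsG-positive and 1.16 in 350 ZsG-negative cells. A cluster of 230 ZsG-positive cells that raised all 9 monocyte/macrophage markers, described below, gave 699 of these 1781 ZsG-positive UMIs. In NK/ILC cells 7 of 2630 had a Ccl17 UMI (0.266%).

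**Figure D3:**
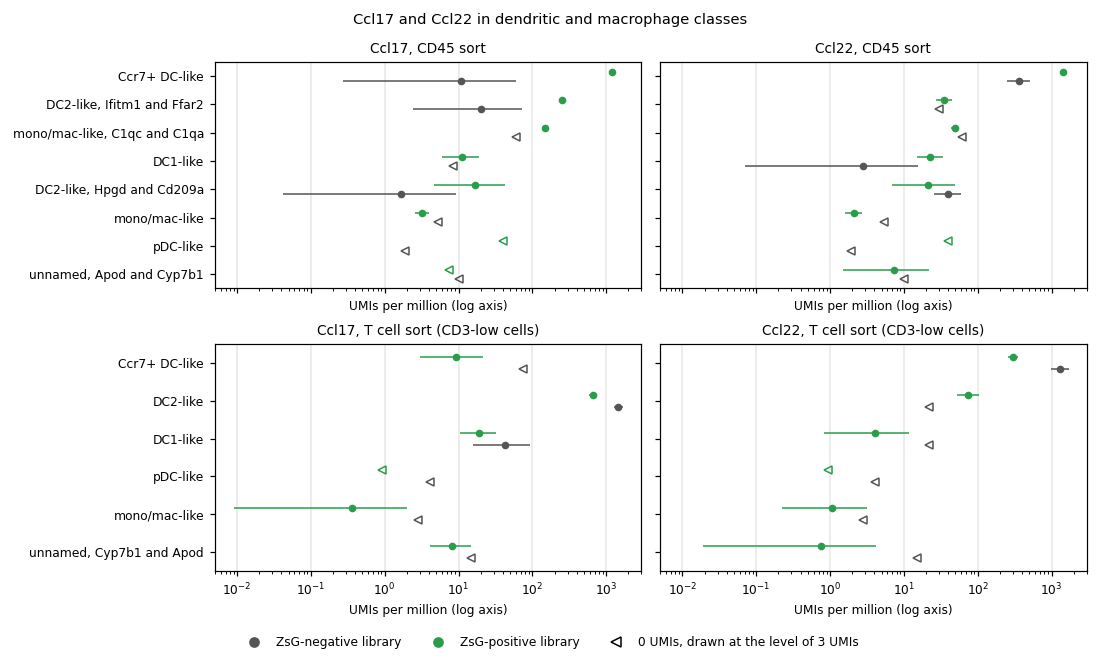
Levels of Ccl17 and Ccl22 in DC and macrophage classes, in CPM on log axes, for the CD45 sort in the upper panels and the CD3-low cells of the T cell sort in the lower panels. Gray is the ZsG-negative and green the ZsG-positive library, bars are 95% Poisson intervals, and open triangles mark 0 UMIs, drawn at the level of 3 UMIs. In the ZsG-positive library of the CD45 sort Ccr7-positive DC-like cells are highest for both genes, and in the T cell sort DC2-like cells are highest for Ccl17.

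The other classes that grouped with the DCs in the CD45 sort stood at lower Ccl17 levels. The DC2-like cells formed 2 clusters, called by their leading genes. Ifitm1/Ffar2 DC2-like cells stood at 253 CPM of Ccl17 (232 to 276, 29 of 184 cells) in the ZsG-positive library, where 1 cell held 181 of 520 UMIs, and at 19.95 (2.42 to 72.1) in 7 ZsG-negative cells. The cluster led by C1qc and C1qa, which grouped with the DCs but raised all 9 monocyte/macrophage markers, stood at 148 (137 to 159, 53 of 230 cells, thinned 10.0%) in the ZsG-positive library and was at 0 in 3 ZsG-negative cells. DC1-like cells, the Xcr1-bearing type, stood at 11.04 (5.88 to 18.9) and 0, and Hpgd/Cd209a DC2-like cells at 16.8 (4.59 to 43.1) and 1.67. The intervals of these last classes overlapped in the ZsG-positive library, while the first 3 classes did not overlap in their counting intervals. The other monocyte/macrophage-like cells stood at 3.22 CPM in the ZsG-positive library. An unnamed cluster led by Anln and Olfml3 stood at 17.9 CPM in 320 ZsG-positive cells, with 89 of its 132 UMIs in 1 cell. The unnamed cluster led by Mmp12 and Rhov stood at 5.21 in that library. The pDC-like cells held no Ccl17 UMI in 197 cells.

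For Ccl22 the order below the Ccr7-positive class was flatter. ZsG-positive levels were 49.3 CPM (43.1 to 56.0) in the C1qc-led cluster, 35.1 (27.5 to 44.2) in Ifitm1/Ffar2 DC2-like cells, 22.9 (15.1 to 33.4) in DC1-like cells and 21.1 (6.83 to 49.1) in Hpgd/Cd209a DC2-like cells. Each of these classes overlapped with its neighbor in this order, while the C1qc-led cluster did not overlap with DC1-like cells. In the 58 ZsG-negative Hpgd/Cd209a DC2-like cells the level was 40.1, with 23 of 24 UMIs in 1 cell. The monocyte/macrophage-like class outside the DC clusters stood at 2.11 in the ZsG-positive library. The unnamed clusters led by Anln and Olfml3 and by Mmp12 and Rhov stood at 4.34 and 3.18 there.

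The neighboring genes were often read in the same cell. All 21 Ccl17-positive Ccr7-positive DC-like cells of the CD45 sort had Ccl22, which is 48.8% of the 43 Ccl22-positive ones, and of the cells of this class without Ccl17 55.0% had Ccl22. In Ifitm1/Ffar2 DC2-like cells 11 of 30 Ccl17-positive cells (36.7%) had Ccl22, against 9.32% of those without Ccl17. In the C1qc-led cluster 24 of 53 had it (45.3%), against 13.3%. The cell with most Ccl17 UMIs, 219, held 152 of Ccl22, the highest of that gene too.

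**Figure D4:**
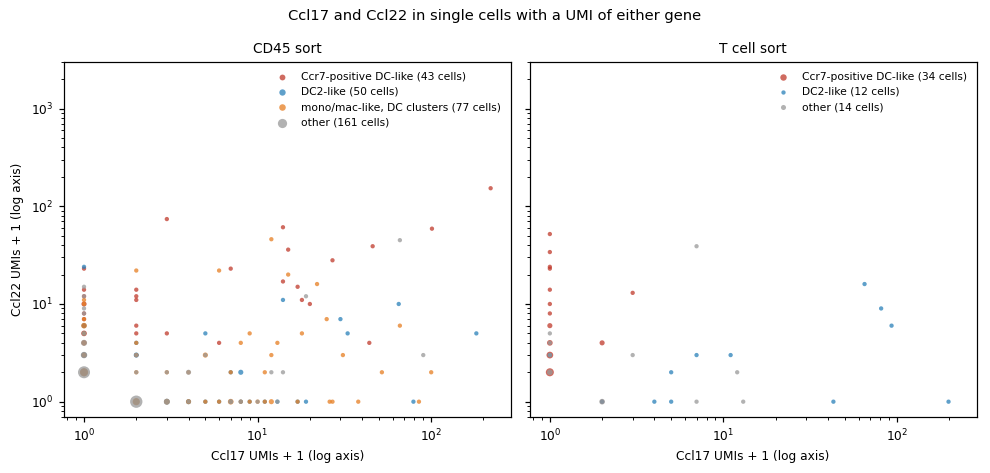
UMIs of Ccl17 and Ccl22 (plus 1, log axes) in each cell with a UMI of either gene, with dot area by the number of cells at that point and color by class. In the CD45 sort the Ccr7-positive DC-like cells with Ccl17 all hold Ccl22 as well, and in the T cell sort 3 of the 34 such cells with either gene hold both.

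The CD3-low cells of the T cell sort gave a second set of DCs, in which the classes divided the ligands differently. Their 52 ZsG-positive Ccr7-positive DC-like cells held 166 Ccl22 UMIs, 304 CPM (260 to 354, 31 of 52 cells), but 5 Ccl17 UMIs (9.17, 2.98 to 21.4). Their 31 ZsG-positive DC2-like cells held 306 Ccl17 UMIs, 653 CPM (582 to 731, 10 of 31 cells), and 35 Ccl22 UMIs (74.7). In the ZsG-positive libraries Ccl17 was thus highest in DC2-like cells here and in Ccr7-positive DC-like cells in the CD45 sort. The ZsG-negative library of this sort had 4 Ccr7-positive DC-like cells with 53 Ccl22 UMIs, 51 of them in 1 cell (1314 CPM), and 9 DC2-like cells with 197 Ccl17 UMIs, all in 1 cell (1451 CPM). The log2 ratios were -2.11 (-2.57 to -1.64) for Ccl22 and -1.15 (-1.41 to -0.89) for Ccl17, and their signs turn if the library order is exchanged. Each ZsG-negative value rests on 1 cell. The DCs of the T cell sort had passed a TCRb+ gate. Cd8a UMIs were in 33.9% of its Ccr7-positive DC-like cells, against 0% in the CD45 sort. For DC2-like cells the shares were 5%, against 2.62% and 2.22% in the CD45 clusters. The file headers also name different Cell Ranger versions, 6.1.2 for the T cell sort and 7.0.0 for the CD45 sort. The part of these differences in the ligand levels was not tested.

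T cells held next to none of the CCR4 ligands. The 1439 T cells of the T cell sort held 43 Ccl22 and 8 Ccl17 UMIs, of which 38 and 6 were in the Treg-like cell with mature DC markers described above. In the T clusters of the CD45 sort 65 of 67 Ccl17 UMIs and 44 of 48 Ccl22 UMIs were in 1 cell with 22294 UMIs, which carried all 7 T cell and all 7 mature DC markers and was in the top 5% of doublet scores.

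**Figure D5:**
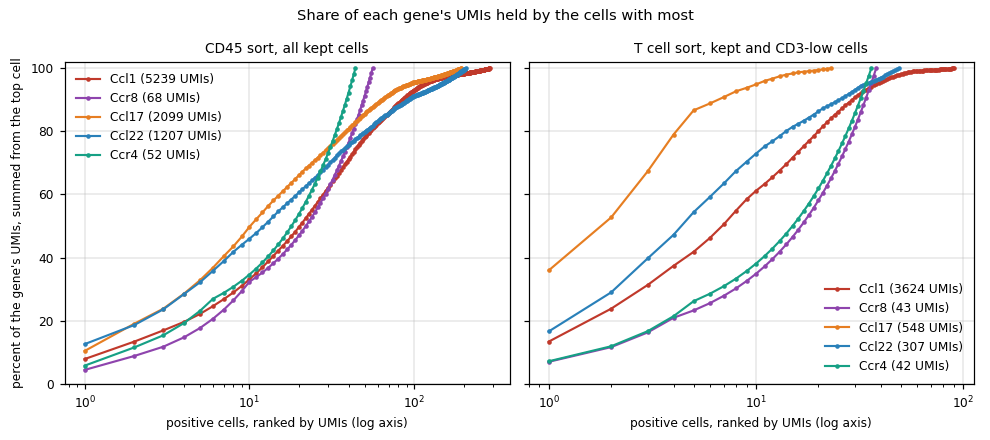
Percent of each gene's UMIs held by its positive cells, summed from the cell with most UMIs downward (log axis of cell rank), for the CD45 sort and the T cell sort. In the T cell sort 1 cell holds 35.9% of the Ccl17 UMIs, while the sparse Ccr8 and Ccr4 curves rise late because most positive cells hold 1 UMI.

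The ligands and the receptors thus differed in how their UMIs were spread. In the CD45 sort cells with at least 10 UMIs gave 93.2% of the Ccl1 UMIs in the ZsG-negative library, and 84.9% of the Ccl17 and 70.0% of the Ccl22 UMIs in the ZsG-positive library. For Ccr8 35 of 43 and for Ccr4 27 of 32 positive ZsG-negative cells held a single UMI.

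Genes related to the axes were taken from lists. Ccl8, the other mouse ligand of CCR8, had 32825 UMIs in the ZsG-positive and 167 in the ZsG-negative library of the CD45 sort, and 23036 of the former were in monocyte/macrophage-like cells. Ackr2, a decoy receptor that binds several of these chemokines, was at 0 in all 4 libraries. Of the 13 genes listed as inducers of Ccl17 and Ccl22 and their receptors 8 had at least 10 UMIs in Ccr7-positive DC-like cells of the CD45 sort. Of these, 6 were at least 2-fold higher in the ZsG-positive library (Csf2ra, Csf2rb, Crlf2, Cd40, Stat6 and Irf4) and none lower, with a median log2 ratio of 1.10 against -0.04 over all genes, of which 20.6% were higher and 9.75% lower. The minimum was summed over both libraries, with 49 ZsG-positive against 12 ZsG-negative cells. A gene could thus pass it through the ZsG-positive library alone. These numbers therefore favor genes higher there and are a description only. The counts behind the 6 genes were small. They were 31 and 1 UMIs for Crlf2, the receptor of TSLP, and 140 and 14 for Csf2rb, a receptor subunit of GM-CSF. For Irf4, with 14 and 1 UMIs, the log2 interval of -1.20 to 6.92 spanned both directions, so its direction was not resolved. Of 13 DC maturation genes in the same cells 2 were higher (Il4i1 and Cd40) and 1 lower (Fscn1), with a median of -0.23. Fscn1, Ccr7, Il4i1, Cacnb3, Socs2 and Relb were also markers that named this class, so likeness between the libraries was in part built in.

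Of 14 other chemokine receptors with at least 10 UMIs in the T cells of the T cell sort 3 were at least 2-fold higher in the ZsG-positive library (Ccr1, Ccr3 and Ccr9), with a median log2 ratio of 0.31, and none lower. Of all genes tested in these cells 7.76% were higher and 2.63% lower. In the T clusters of the CD45 sort Ccr3 and Ccr9 had 21 and 48 UMIs in the ZsG-negative library and none in the ZsG-positive. For Ccr9 that is the opposite direction under the library order used for the T cell sort, and the same direction if that order is exchanged. For Ccr3 the 21 UMIs were too few to resolve a direction, with 214 ZsG-positive against 1534 ZsG-negative cells. Ccr3 was also the leading gene of the Treg-like class of the T cell sort, and the part of that class in its values was not tested. Ccr1 was at least 2-fold higher in the ZsG-positive library of both sorts under the order used. Ccr9 is also a gene of pDCs, which the T cell sort held, and their part in the Ccr9 values was not tested. Csf2, which encodes GM-CSF, stood at 32.0 CPM in ZsG-positive and 8.33 in ZsG-negative T cells of the T cell sort. In the T clusters of the CD45 sort Csf2 stood at 5.38 and 13.1, again opposite under the order used and alike if that order is exchanged. Csf2ra and Csf2rb, of the same list of inducers and receptors, were at least 2-fold higher in the ZsG-positive library of both sorts under the order used. T clusters with monocyte/macrophage genes held 60 ZsG-positive and 9 ZsG-negative cells in the T cell sort. In the CD45 sort the cluster led by Arg1 and Dab2 held 82 and 5, and the one led by Chil3 and Il1b 18 and 13. The part of these cells in the Ccr1, Csf2ra and Csf2rb values was not tested. Of the type 2 cytokine genes Il4 and Il5 were at 0 in these cells, and Il13 had 6 UMIs, all in the ZsG-negative library. The CD45 T clusters held 5 Il13 UMIs.

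The genes most like Ccl1 across 45 class-by-library groups of the CD45 sort, by Pearson correlation of log2(CPM + 1), were Slc17a6 (r = 0.84), Gzmf (0.84) and Penk (0.83). Across 36 groups of the T cell sort they were C2cd4b (0.84), Slc17a6 (0.84) and Csf2 (0.82). For Ccr8 in the CD45 sort C2cd4b came first (0.90) and Tnfrsf4 was among the top 5. Ccl22 was among the 5 genes most like Ccl17, and Ccl17 among the 5 most like Ccl22, in the CD45 sort. The groups share libraries and cell classes, and several hold few UMIs of the gene, so these are descriptions only. Ccr4 in both sorts and Ccr8 in the T cell sort had fewer than 50 UMIs and were not ranked.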

How the data were processed

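The authors deposited UMI counts per gene and cell for each library, made with 10x 3′ v3.1 chemistry and Cell Ranger on mm10 (6.1.2 per the labels and 7.0.0 per the file header of the CD45 sort). The paper states that its samples were combined with the aggr step of Cell Ranger. Whether that step had evened out depth between the libraries was not checked, and the counts were used as deposited. Genes found in fewer than 3 cells were left out of the clustering. Cells of the CD45 sort were kept at 1000 to 6000 genes and under 10% mitochondrial UMIs, and those of the T cell sort at 50 to 6000 genes and under 15%. In the T cell sort, T cells had at least 0.055% of their UMIs from CD3 genes, and the rest were kept apart. Each sort was clustered with Seurat 5.3.0 (R 4.3.3) on 2000 variable genes, without the 5 genes or their relatives, with 20 components and a resolution of 0.8 (1.2 for T cells). The members, lists and markers were chosen with earlier results of these data known, and the rule for naming clusters was adjusted after the clusters were seen.

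Counts were summed per class and library with Python 3.11.15, numpy 2.4.6 and pandas 2.3.3. Sums carry exact Poisson, shares exact Clopper-Pearson and ratios exact conditional 95% intervals (scipy 1.17.1), and a count of 0 was given a limit of 3 counts. The counting script was checked on simulated data. Shares were also computed after thinning each cell to 2000 UMIs, leaving out shallower cells. For gene lists the minimum was 10 UMIs over both libraries, so a gene could pass it through the library with more cells alone. A doublet caller (Scrublet, scanpy 1.11.5) marked 0 to 11 cells a library, too few to have worked, so no doublet was removed. The top 5% of doublet scores came from the same run and was taken in each library whatever the scores were. No test was run, since each group had 1 library. The labels of the T cell sort libraries gave opposite orders, and the order of the file name was used. Alternatives covered filters, totals, thinning, clusters, doublets, the top cell and exchanged libraries. Genes were named by role, or for likeness as the top 5 by Pearson correlation.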

Additional observations from a re-analysis of the deposited data

Results flagged for a closer look

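The ZsG ratios of the CCR4 ligands in DCs had opposite signs in the CD45 and T cell sorts under the library order used for the T cell sort. For Ccl22 in Ccr7-positive DC-like cells the log2 ratio of ZsG-positive over ZsG-negative was 1.96 in the CD45 sort and -2.11 in the CD3-low cells of the T cell sort. For Ccl17 in DC2-like cells it was 3.67 in the CD45 sort (cells led by Ifitm1 and Ffar2) and -1.15 in the T cell sort. With the doubted order of the T cell sort exchanged, the ZsG-positive level there would be 4.32-fold higher for Ccl22 and 2.22-fold higher for Ccl17, the same direction as in the CD45 sort. The difference was not tested, since each group had 1 library. The sorts also differed in gate and in Cell Ranger version. In the T cell sort, 1 cell held 51 of 53 ZsG-negative Ccl22 UMIs and 1 cell all 197 ZsG-negative Ccl17 UMIs. In the CD45 sort the ZsG-negative Ccl17 value rested on 2 UMIs in 7 cells.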

How the results depend on the processing

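Of 156 recomputed values 119 stayed within the counting interval of the reported value, 36 moved and 1 reversed. The Ccr8 log2 ratio over the T cells of the T cell sort was -1.46 with the libraries exchanged, as the library descriptions order them, and within Treg-like cells -1.52. Every other ZsG ratio of that sort changes sign with this exchange too. No paired analysis was possible because each group has 1 library and no replicate numbers. Fewer principal components, a lower resolution, a minimum of 500 genes and 0.5 added to each sum left all 35 values computed with them inside the counting intervals. Those intervals are wide for Ccr8 in Treg-like cells: with 10 principal components its ZsG-negative level was 9.64 CPM in place of 4.40 and its log2 ratio 0.32 in place of 1.52, and with 0.5 added the ratio was 1.00.

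With cells thinned to 2000 UMIs the CPM levels were 208 and 12.3 for Ccl1 in ZsG-positive and ZsG-negative T cells of the T cell sort, 28.0 for Ccr4 in ZsG-positive and 0 for Ccr8 in ZsG-negative Treg-like cells, and 1112 for Ccl22 and 714 for Ccl17 in ZsG-positive Ccr7-positive DC-like cells. The thinned log2 ratios in these DCs were 1.42 for Ccl22 and 4.10 for Ccl17, and the share of Ccl1 from the top cell was 11.7% and 43.8%. Without the top cell the Ccl1 levels were 380 and 19.9 (top-cell shares 13.2% and 46.4%), Ccl22 1141 and 246, Ccl17 753 and 0, and Ccr8 in ZsG-negative Treg-like cells 0. Totals without mitochondrial and ribosomal protein genes gave 653 and 79.4 for Ccl1, 1832 for Ccl22 and 1546 for Ccl17. A mitochondrial limit of 5% gave 508 and 70.5 for Ccl1, and no CD3 limit 183 and 31.6. Without the top 5% of doublet scores Ccl1 was 459 in the ZsG-positive library, with 16.3% from the top cell. Without mixed-lineage cells it was 507.5, with 16.8% and 73.1% from the top cells. Mature DCs called from marker UMIs gave 248 and 60.3 for Ccl22 and 325 for Ccl17. Thinning left fewer counts and gave each cell the same total, so deep cells weighed less in the thinned levels and ratios. Apart from that the causes were not tested. The thinned Ccr8 ratio in Treg-like cells had no value, since no ZsG-negative UMI was left. Ccr8 and Ccr4 had at most 3 UMIs in a cell.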
